A study of Mus musculus with 20 samples.

Results

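The receptors through which neurotrophins and the GDNF family of ligands act on sensory neurons were described in lumbar dorsal root ganglia, which house the cell bodies of sensory neurons, 1 day after transection of the sciatic nerve. The 8 receptor genes Ntrk2, Ntrk3, Ngfr, Sort1, Ret, Gfra1, Gfra2 and Gfra3 were found by matching the Ensembl identifiers of the count table to gene symbols, by a rule that reads no measured value, although the set was chosen with earlier results of these data known. All 8 were among the 78258 gene rows of the table, and all 8 were among the 28564 genes that passed a filter on low counts and were tested. The values are mRNA levels of whole ganglia, in which fewer cells of a type and less RNA per cell cannot be told apart.

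The mice, 10 males, each gave 1 library from the ganglia of lumbar levels 4 to 6 on the lesioned (ipsilateral) side and 1 from the other (contralateral) side, so that 20 libraries fell into 4 groups of 5. Control mice (Ahr f/f or f/+) and conditional knockout mice (cKO, Ahr fl/fl with Thy1-CreERT2/EYFP) all received tamoxifen, 100 mg/kg intraperitoneally on 5 days from 17 weeks of age, and were operated on 4 weeks later. Ganglia were taken between ZT2 and ZT4, where ZT0 is lights on. Ahr encodes the aryl hydrocarbon receptor (AhR), a ligand-activated transcription factor; the floxed alleles were carried by the controls too, and the tamoxifen-inducible Cre recombinase was driven by the Thy1 promoter, which is active in a part of the cells of a ganglion. The tissue compared with the lesioned ganglia was the other side of the same mouse, not an uninjured animal. One label field names a spinal cord injury whereas the protocol describes sciatic nerve transection, and 1 sample title gives H6 for the mouse whose library name is H61. Sample titles call the controls Wildtype, whereas their library names read ff, and which control was f/f or f/+ is not given. The protocol and the library names were followed.

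Counted reads per library ranged from 76.2 M to 118.5 M (M, 1e6 counts), and the scatter between replicates exceeded counting error, so the spread between mice set the precision. The 16 sensory neuron markers summed to 13711 to 16306 CPM (TMM-normalised counts scaled to the library total) in the 20 libraries. Each of these markers averaged at least 0.1 CPM over all libraries. Contralateral libraries had 24.2 ± 2.10 CPM of Ahr in control mice against 20.4 ± 0.536 CPM with cKO (SD, n = 5), without overlap, but was not called across all genes (log2 fold change -0.25, edgeR adjusted p 0.103), although it was called by DESeq2 (-0.24, adjusted p 0.0275) and without mouse H99 (-0.25, adjusted p 0.0353). Ipsilateral libraries had 34.4 ± 2.86 CPM of Ahr in control mice against 31.9 ± 2.94 CPM with cKO, with overlapping ranges and no call (-0.11, edgeR adjusted p 1, 95% interval -15.5% to 2.09%), and Ahr was called higher after injury in both genotypes (0.50 and 0.65). Thy1, the gene whose promoter drives the Cre, was at 641 ± 34.1 CPM in contralateral libraries of control mice against 1093 ± 61.9 CPM with cKO, and was called (log2 fold change 0.77, edgeR adjusted p 1.39e-08), as it was ipsilaterally (0.63, adjusted p 4.65e-07). Atf3, an early marker of axon injury, rose from 11.4 to 426 CPM after injury in control mice and, in the cKO, from 9.24 to 417 CPM. The summed fibroblast markers of 3 contralateral cKO libraries (H64, H95 and H100, 1689 to 2245 CPM) exceeded those of the other 17 libraries, which reached at most 1560.2 CPM. Several results that rest on these 3 libraries are given below with and without them. The fit without them keeps H61 and H99 as the only contralateral cKO libraries.

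Neurotrophins are secreted proteins that bind tyrosine kinase receptors of the Trk family. TrkB, encoded by Ntrk2, is the receptor of BDNF and neurotrophin-4, and TrkC, encoded by Ntrk3, is the receptor of neurotrophin-3. The p75 neurotrophin receptor, encoded by Ngfr, binds all neurotrophins, and with sortilin, encoded by Sort1, it forms a receptor for their uncleaved precursors. Ligands of the GDNF family act through RET, a receptor tyrosine kinase that binds them together with a GPI-anchored co-receptor: GFRα1 prefers GDNF, GFRα2 neurturin and GFRα3 artemin. In dorsal root ganglia TrkB and TrkC mark classes of large, myelinated mechanoreceptors and proprioceptors, RET and GFRα2 are typical of non-peptidergic nociceptors and low-threshold mechanoreceptors, and GFRα3 of peptidergic nociceptors.

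Promoter sequences are shown for the receptors in which a core of the dioxin response element, the DNA motif bound by AhR with its partner ARNT, could be looked for, because Ahr was the deleted gene. RefSeq sequences of the 250 bases before the start (GRCm38.p6) were matched for 3 of the 8 receptors, namely Ntrk2, Ngfr and Gfra1. The core was searched as GCGTG, or CACGC on the other strand, and is marked in capitals. The first sequence is chr13:58806319-58806568 on the plus strand and the second chr11:95587736-95587948 on the minus strand, cut to 213 bases to leave out an annotated exon.
Ntrk2: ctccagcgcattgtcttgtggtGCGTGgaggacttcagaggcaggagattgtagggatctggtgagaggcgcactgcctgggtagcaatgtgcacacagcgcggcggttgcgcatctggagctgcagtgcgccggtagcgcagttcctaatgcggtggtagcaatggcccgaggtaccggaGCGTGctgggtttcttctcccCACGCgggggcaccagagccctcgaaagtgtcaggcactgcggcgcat
Ngfr: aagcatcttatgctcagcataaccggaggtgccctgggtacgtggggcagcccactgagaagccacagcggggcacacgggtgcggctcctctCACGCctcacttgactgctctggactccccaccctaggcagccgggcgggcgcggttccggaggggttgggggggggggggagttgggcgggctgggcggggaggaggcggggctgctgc
The Ntrk2 window held 3 cores, 228, 69 and 48 bases before the start, and the Ngfr window held 1. The Gfra1 window held none, and as it lies in an annotated exon it is not printed. Of the 32851 promoters in the table, 28.157% held at least 1 core. None of the 3 windows held an AP-1 site (TGACTCA or TGAGTCA, in 4.463% of promoters) or a CRE (TGACGTCA, in 1.546%). Such matches describe letters only; binding was not measured here, and the values of the 3 receptors between genotypes follow below.

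Transection was followed by a higher level of Gfra1, Gfra3 and Ret and a lower level of Gfra2 on the lesioned side in both genotypes, while the Trk receptors Ntrk2 and Ntrk3 and the sorting receptor Sort1 were not called in either. In control mice 5 of the 8 receptors were called (3 higher, 2 lower; edgeR quasi-likelihood test, adjusted p under 0.05 over all genes), beside 29.9% of all tested genes (13.8% higher, 16% lower). In cKO mice 4 of 8 were called (3 higher, 1 lower), beside 31.3% of all tested genes (16.2% higher, 15.1% lower). The median log2 fold change of the 8 receptors was -0.037 in control and 0.0017 in cKO mice, against -0.0047 and -0.030 over all tested genes. In control mice all 7 fibroblast, 9 macrophage and 6 endothelial markers were above 0 (medians 0.34, 0.50 and 0.37), with 0, 1 and 1 called higher, and 3 of 8 satellite glia markers were called higher. In cKO mice 6 of the 7 fibroblast markers were below 0 (median -0.64, 1 called lower), the macrophage and endothelial medians were 0.20 and 0.043 with none called, and 2 of 8 satellite glia markers were called higher. All 5 erythroid and all 5 muscle markers were below 0 in cKO mice (medians -0.41 and -3.39). In control mice 4 erythroid and all 5 muscle markers were above 0 (medians 0.034 and 0.54), and none was called in either genotype. The part of these cell types in the receptor values was not tested beyond the fibroblast covariate. The ranges of the 2 sides did not overlap for 4 of the 8 receptors in control mice, beside 23.6% of all genes, and for 3 of the 8 in cKO mice, beside 20.2%.

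**Figure D1:**
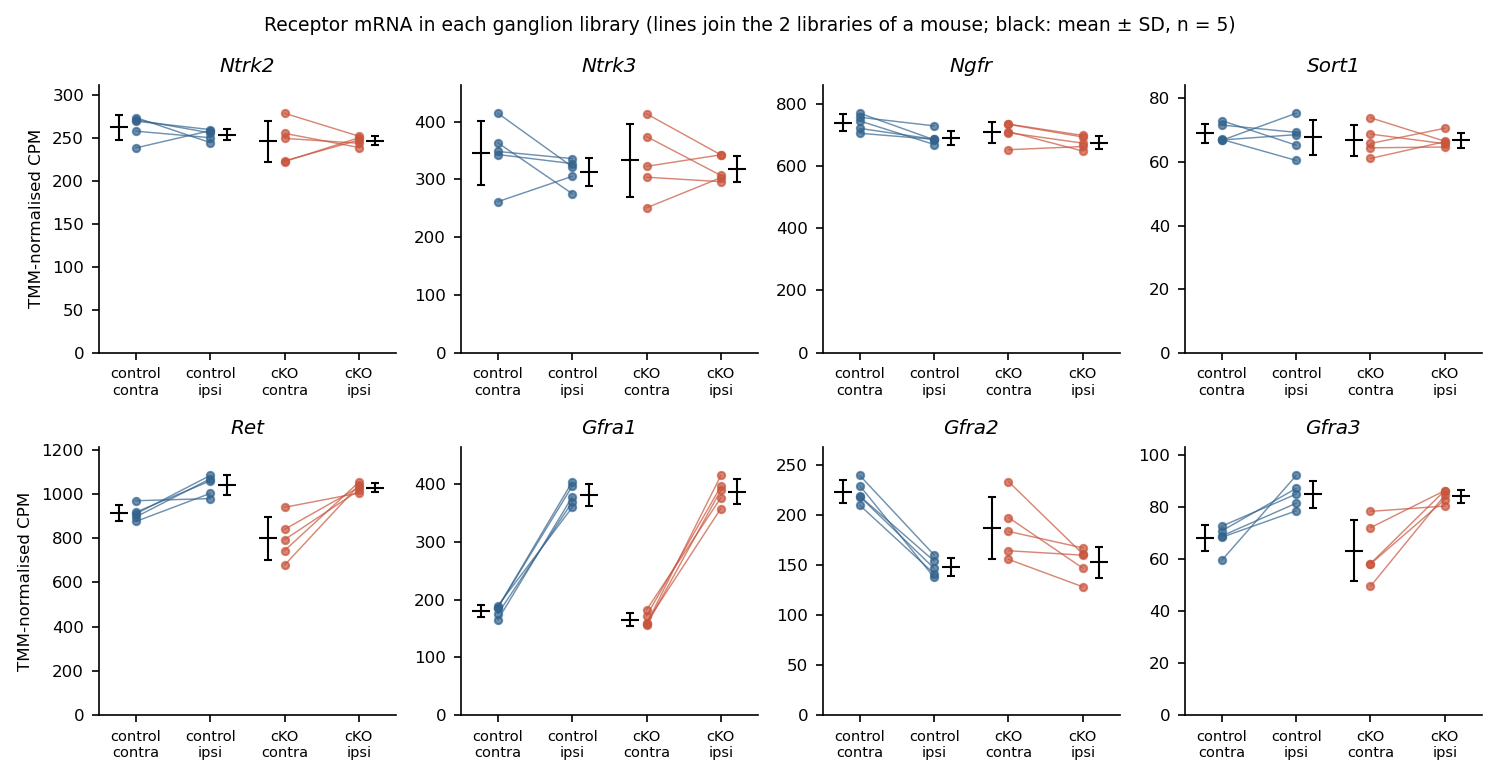
TMM-normalised CPM (vertical axes, from 0) of the 8 receptor genes in each of 20 ganglion libraries, control in blue and cKO in red; lines join the 2 libraries of a mouse and black bars are mean ± SD, n = 5. Gfra1 was at 358 CPM or more in all 10 ipsilateral and at 189 CPM or less in all 10 contralateral libraries, Gfra2 was lower on the lesioned side of every mouse, and the Ntrk2, Ntrk3 and Sort1 ranges overlapped.

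Of the Trk receptors, Ntrk2 (ENSMUSG00000055254, chr13:58806569-59133970, plus strand, GRCm38) was 271, 269.6, 258, 238 and 274 CPM in the contralateral and 256, 259.8, 250.4, 259 and 245 CPM in the ipsilateral ganglia of control mice H62, H63, H65, H96 and H97. In cKO mice H61, H64, H95, H99 and H100 it was 249.6, 223, 255, 279 and 223 CPM contralaterally and 244, 248, 239, 252 and 250.3 CPM ipsilaterally. The groups overlapped, and the contralateral libraries spread more widely than the ipsilateral ones in both genotypes (SD 14.6 against 6.29 CPM in control, 23.7 against 5.27 CPM in cKO mice). The fitted change was -3.19% in control mice (95% interval -9.96% to 4.09%) and 0.259% in cKO mice (-6.75% to 7.80%). In this fit an injury effect on whole-ganglion Ntrk2 of more than about 10% lay outside these intervals. Leaving out each mouse gave log2 fold changes of -0.077 to -0.0034 in control mice. Without the 3 contralateral libraries high in fibroblast markers the value in cKO mice was -0.092, and none of these was called.

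Ntrk3 (ENSMUSG00000059146, chr7:78175959-78738012, minus strand, GRCm38) had the widest relative spread of the 8 receptors on the contralateral side, with coefficients of variation of 15.9% in control and 18.9% in cKO mice. Control contralateral libraries held 343, 348, 363, 262 and 415 CPM and ipsilateral ones 327, 336, 275, 305 and 322 CPM, in the mouse order above. In cKO mice the values were 374, 323, 251, 414 and 304 CPM contralaterally and 307, 343, 303, 343 and 296 CPM ipsilaterally. The ranges overlapped, 7 of 10 mice were lower on the lesioned side, and the intervals of the change were wide, -24.0% to 7.69% in control and -19.7% to 13.7% in cKO mice. In cKO mice the log2 fold change was -0.066 in the fit reported. Over the alternatives other than leaving out a mouse it was -0.30 to -0.046, never called. Of 9 other markers of large myelinated mechanoreceptors and proprioceptors, 4 were called lower and 1 higher in control mice and 4 lower and none higher in cKO mice, beside 16% and 13.8%, and 15.1% and 16.2%, of all tested genes (list medians -0.18 and -0.16). Their sums were 2714 to 3160.5 CPM contralaterally and 2723 to 3029 CPM ipsilaterally in control mice, 2638 to 3351 and 2514 to 2755 CPM in cKO mice, and overlapped.

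Ngfr, the p75 receptor (ENSMUSG00000000120, chr11:95568818-95587735, minus strand, GRCm38), was 721, 769, 756, 705 and 745 CPM contralaterally and 686, 684, 729, 686 and 669 CPM ipsilaterally in control mice. In cKO mice it was 707, 652, 710.4, 734 and 734 CPM contralaterally and 673, 663, 648, 698 and 693 CPM ipsilaterally. Ngfr was lower on the lesioned side in 9 of 10 mice, the exception being H64, yet the ranges of the sides overlapped. The change was -6.58% in control mice (log2 fold change -0.098, SE 0.0361, adjusted p 0.0450), just past the threshold, and -4.60% in cKO mice (-0.068, adjusted p 0.167); the difference between genotypes was not called. The control call was lost in 12 of 18 alternatives, among them RLE scaling and leaving out any mouse other than H64 and H99 (-0.10 to -0.066).

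Sort1, which sorts proneurotrophins and other cargo (ENSMUSG00000068747, chr3:108284082-108361511, plus strand, GRCm38), was 66.9, 71.6, 67.1, 66.8 and 73.0 CPM contralaterally and 68.6, 69.3, 60.5, 75.3 and 65.3 CPM ipsilaterally in control mice. In cKO mice it was 64.4, 65.8, 68.7, 73.9 and 61.1 CPM contralaterally and 64.7, 70.6, 65.7, 66.5 and 66.3 CPM ipsilaterally. It was higher on the lesioned side in 5 mice and lower in 5, and the intervals of the change were -8.94% to 5.79% in control and -7.25% to 7.75% in cKO mice. An antisense gene, Gm12523, shares 338 bases (4.466%) of the Sort1 exons, and as the strand setting of the counting is not given in the sources used here, reads from the shared part cannot be told apart.

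Ret, the signalling receptor shared by the GDNF family ligands (ENSMUSG00000030110, chr6:118151745-118197718, minus strand, GRCm38), was higher on the lesioned side in all 10 mice. It was 918, 896, 910.1, 876 and 969.8 CPM contralaterally and 1059.6, 1069, 1084, 1003 and 979 CPM ipsilaterally in control mice. In cKO mice it was 840.0, 678, 744, 939.9 and 793 CPM contralaterally and 1030.1, 1040.2, 1053, 1005 and 1017 CPM ipsilaterally. All ipsilateral libraries were above all contralateral ones in each genotype, by 13.7% in control (log2 fold change 0.18, SE 0.0595, adjusted p 0.0222) and 28.8% in cKO mice (0.36, SE 0.0595, adjusted p 6.56e-05). In control mice the fold was lowest in H97, at 1.01, and the call was lost without H62 (0.18), H63 (0.18) or H65 (0.18). In cKO mice the fold was 1.07 in H99 and 1.53 in H64, and the spread lay in the contralateral libraries (coefficient of variation 12.4% against 1.87%).

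Within the contralateral cKO libraries Ret ran in the opposite order to the summed fibroblast markers: H99 had 939.9 CPM of Ret with 937 CPM of markers, H61 840.0 with 1009.9, H100 793 with 1689, H95 744 with 1985 and H64 678 with 2245. The other groups did not keep this order. In control contralateral libraries, H62 had 918 CPM of Ret with 1359 CPM of markers, and H96 had 876 with 808. Gfra3 did not keep it in the contralateral cKO libraries either, at 78.3 CPM in H95 and 49.5 CPM in H64. Without the contralateral libraries of H64, H95 and H100 the injury change of Ret in cKO mice was 0.22 on the log2 scale. As these libraries held the lowest Ret of their group, a smaller change followed from leaving them out. With the summed fibroblast markers as a covariate the change was 0.30, and it was called in both fits. In control mice the covariate gave 0.24, also called.

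Gfra1, the GDNF co-receptor (ENSMUSG00000025089, chr19:58235604-58455909, minus strand, GRCm38), changed most of the 8. It was 165, 186, 186, 175 and 189 CPM contralaterally and 378, 404, 396, 369 and 359.6 CPM ipsilaterally in control mice. In cKO mice it was 172, 158, 155, 182 and 160.0 CPM contralaterally and 396, 415, 389.6, 376 and 358 CPM ipsilaterally. The sides were far apart in every mouse, with folds of 1.90 to 2.29 in control and 2.07 to 2.63 in cKO mice, and the ipsilateral libraries of the 2 genotypes covered the same range. The log2 fold change was 1.08 in control (SE 0.0503, adjusted p 1.01e-12) and 1.23 in cKO mice (SE 0.0505, adjusted p 1.34e-13), and was called under every alternative run.

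Gfra2, the neurturin co-receptor (ENSMUSG00000022103, chr14:70890120-70979838, plus strand, GRCm38), moved the other way. It was 239.8, 219, 219, 210.0 and 229.5 CPM contralaterally and 160.2, 147, 154, 141 and 138 CPM ipsilaterally in control mice. In cKO mice it was 198, 156, 164, 234 and 184 CPM contralaterally and 147, 128, 160.0, 161 and 167 CPM ipsilaterally. Gfra2 was lower on the lesioned side in all 10 mice, without overlap of the sides in control but with overlap in cKO mice, whose contralateral libraries reached down to 156 CPM. The change was -33.7% in control (log2 fold change -0.59, SE 0.0897, adjusted p 4.01e-05) and -18.4% in cKO mice (-0.29, SE 0.0895, adjusted p 0.0170). The cKO call was lost without mouse H61 (-0.26), without a filter on low counts (-0.28) and with only the libraries compared (-0.27), and without the 3 contralateral libraries high in fibroblast markers the change was -0.49 and called.

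Gfra2 is typical of neuron classes whose markers were measured beside it. In control mice 4 of the 6 non-peptidergic neuron markers were called lower and none higher (all tested genes, 16% lower and 13.8% higher), with summed levels of 1161 to 1239.6 CPM contralaterally and 1034 to 1132 CPM ipsilaterally. In cKO mice 3 were called lower and 2 higher (all tested genes, 15.1% and 16.2%), with sums of 940.4 to 1242 and 1061 to 1159 CPM. Of the 5 markers of C-fibre low-threshold mechanoreceptors, 3 were called lower and none higher in control mice, and in cKO mice 1 was called higher and none lower. Their sums overlapped between the sides, at 598.7 to 737 and 584 to 631 CPM in control and 469 to 693 and 606 to 649 CPM in cKO mice. No marker of either list averaged under 0.1 CPM over all libraries. Their part in the Gfra2 result was not tested.

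Gfra3, the artemin co-receptor (ENSMUSG00000024366), was 59.5, 68.9, 70.8, 72.7 and 68.4 CPM contralaterally and 92.1, 81.5, 87.2, 85.0 and 78.5 CPM ipsilaterally in control mice. In cKO mice it was 58.1, 49.5, 78.3, 58.3 and 72.1 CPM contralaterally and 82.8, 84.6, 80.4, 86.3 and 86.3 CPM ipsilaterally. It was higher on the lesioned side in all 10 mice, with no overlap of the sides, although the fold was only 1.03 in H95. The log2 fold change was 0.32 in control (SE 0.0904, adjusted p 0.0112) and 0.41 in cKO mice (SE 0.0905, adjusted p 0.00164); without mouse H62, whose fold of 1.55 was the highest of the controls, the control value was 0.24 and was not called. Of the 5 peptidergic neuron markers, 1 was called higher and 1 lower in control mice, and 1 higher and 2 lower in cKO mice, beside 29.9% and 31.3% of all tested genes called, and the median log2 fold changes were 0.013 and -0.13; their sums were 1119.9 to 1226 CPM contralaterally and 1369 to 1537 CPM ipsilaterally in control mice, 1082 to 1393 and 1383 to 1482 CPM in cKO mice, and their part in the result was not tested.

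**Figure D2:**
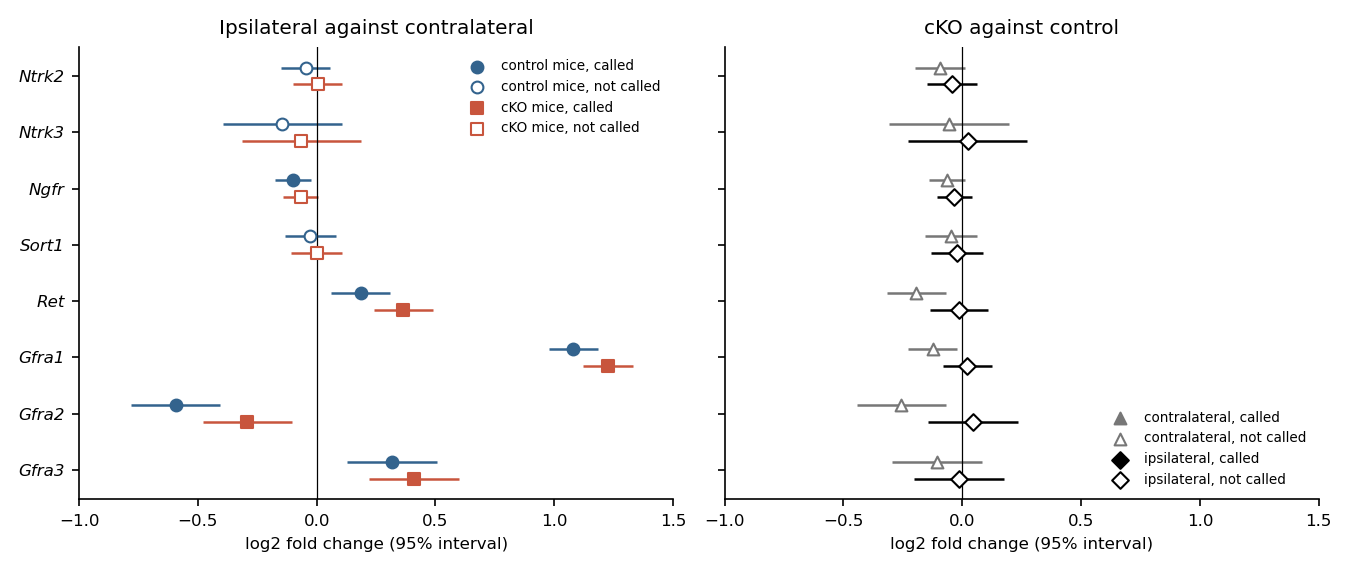
Log2 fold changes of the 8 receptors from the edgeR fit, with 95% intervals (horizontal bars); left, ipsilateral against contralateral in control (circles) and cKO mice (squares), right, cKO against control on each side. Filled symbols are called at an adjusted p under 0.05; on the left Gfra1 lies at 1.08 and 1.23 and Gfra2 at -0.59 and -0.29, and on the right no symbol is filled.

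The opposite changes of the co-receptors altered their proportions. Levels of different genes are compared here as CPM per kilobase of merged exons. Gfra1 made up 25.3% ± 1.03 of the summed level of the 3 GFRα genes in control contralateral and 45.2% ± 1.53 in control ipsilateral libraries (SD, n = 5), and 26.4% ± 1.91 and 45.3% ± 2.74 in cKO mice. Gfra2 went from 48.5% ± 2.65 to 27.2% ± 0.656 in control mice and, in the cKO, from 45.9% ± 4.02 to 27.7% ± 2.67. The share of Gfra3 was 26.2% ± 1.90 and 27.6% ± 1.03 in control, and 27.7% ± 4.78 and 27.0% ± 0.823 in cKO mice. Gfra2 thus had the highest share in all 10 contralateral libraries and Gfra1 in all 10 ipsilateral ones, and the shares of Gfra1 on the 2 sides did not overlap in either genotype. The ratio of Gfra1 to Gfra2 CPM was 0.809 ± 0.0689 and 2.58 ± 0.141 in control, and 0.895 ± 0.0878 and 2.57 ± 0.423 in cKO mice. The summed level of the 3 genes was 130.1 ± 2.53 and 154 ± 6.99 CPM per kb in control, and 115 ± 11.1 and 156 ± 1.19 CPM per kb in cKO mice.

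**Figure D3:**
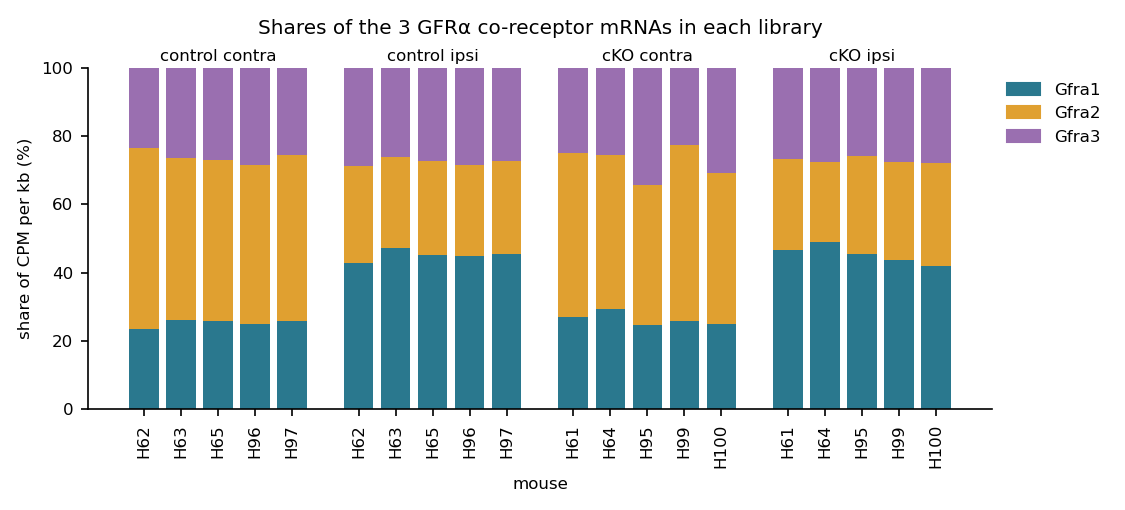
Share (%) of Gfra1, Gfra2 and Gfra3 in the summed level per kb of the 3 GFRα genes, 1 bar per library, named by mouse and ordered by group. Gfra1 took 23.6% to 29.5% of the sum in the contralateral and 41.9% to 49.1% in the ipsilateral libraries.

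On the same per-length scale, the order of levels in control contralateral ganglia was Ngfr (215 ± 7.60 CPM per kb), Ret (135 ± 5.18), Gfra2 (63.1 ± 3.24), Gfra3 (34.1 ± 2.54), Gfra1 (32.9 ± 1.85), Ntrk2 (13.6 ± 0.758), Ntrk3 (11.5 ± 1.83) and Sort1 (9.12 ± 0.394; SD, n = 5). The ranges of Gfra3 and Gfra1, of Ntrk2 and Ntrk3, and of Ntrk3 and Sort1 overlapped. In control ipsilateral ganglia Gfra1 (69.6 ± 3.39) stood next after Ret, above Gfra3 (42.5 ± 2.62) and Gfra2 (41.8 ± 2.59), which overlapped. In cKO mice the order was the same contralaterally, and ipsilaterally Gfra2 (43.2 ± 4.39) and Gfra3 (42.1 ± 1.27) overlapped again. The level of a gene with many transcripts depends on the length taken for it: over all libraries Ntrk2 was 13.1 CPM per kb by all merged exons and 28.8 by its longest transcript, and Ntrk3 was 10.9 and 16.6.

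Between genotypes none of the 8 receptors was called on either side. On the contralateral side, where 0.0735% of all genes were called, the log2 fold changes of cKO against control were below 0 for all 8, from -0.26 in Gfra2 (adjusted p 0.157) and -0.19 in Ret (adjusted p 0.124) to -0.048 in Sort1; 54.2% of all tested genes were below 0. Gfra2 averaged 223 ± 11.5 CPM in control against 187 ± 30.7 CPM with cKO, and Ret averaged 914 and 799 CPM with coefficients of variation of 3.83% and 12.4% (n = 5). The ranges of the genotypes overlapped for all 8 receptors, where 1.52% of all genes had ranges apart. The 95% intervals were -26.5% to -4.64% for Gfra2, -19.8% to -4.72% for Ret and -14.7% to -1.45% for Gfra1, before any adjustment for the number of genes. For Ntrk2 and Ngfr, whose promoter windows are printed above, they were -12.8% to 0.844% and -9.16% to 0.837%.

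These contralateral values rested on which cKO libraries were used. Without mouse H99, whose contralateral library had the lowest fibroblast marker sum of its group, Ret (-0.26), Gfra2 (-0.35), Gfra1 (-0.16) and Ntrk2 (-0.14) were called lower, in a fit that called 3326 genes. Without the 3 contralateral libraries high in fibroblast markers, only H61 and H99 remained in the group. The values were then -0.038 for Ret, -0.050 for Gfra2 and -0.027 for Gfra1, none called. Ntrk2 (0.012), Ntrk3 (0.19) and Sort1 (0.0029) were above 0. The 3 libraries left out also held the lowest Ret, Gfra2 and Gfra1 of their group, so leaving them out could only raise these cKO means. That fit cannot tell their fibroblast content from their low receptor levels. With the fibroblast covariate the values were -0.089 for Ret, -0.16 for Gfra2 and -0.028 for Gfra1, and Ntrk3 (0.063) was above 0. All 8 were below 0 under RLE scaling and DESeq2. All 7 fibroblast markers had a positive log2 fold change in this comparison, with a median of 0.85, and none was called. All 9 macrophage, 6 endothelial and 5 erythroid markers were likewise above 0, with medians of 0.26, 0.099 and 0.47. The summed muscle markers were 1592 CPM in the contralateral library of H100 and 5.27 to 59.3 CPM in the other 4 of its group, against 8.43 to 330.2 CPM in control mice. All 6 non-peptidergic markers (median -0.20) and all 5 C-fibre low-threshold mechanoreceptor markers (median -0.23), from neuron classes in which Ret and Gfra2 are typical, were below 0, and none of these markers was called. Both fits were chosen after seeing the data, and the part of cell composition in the receptor values was otherwise not tested.

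**Figure D4:**
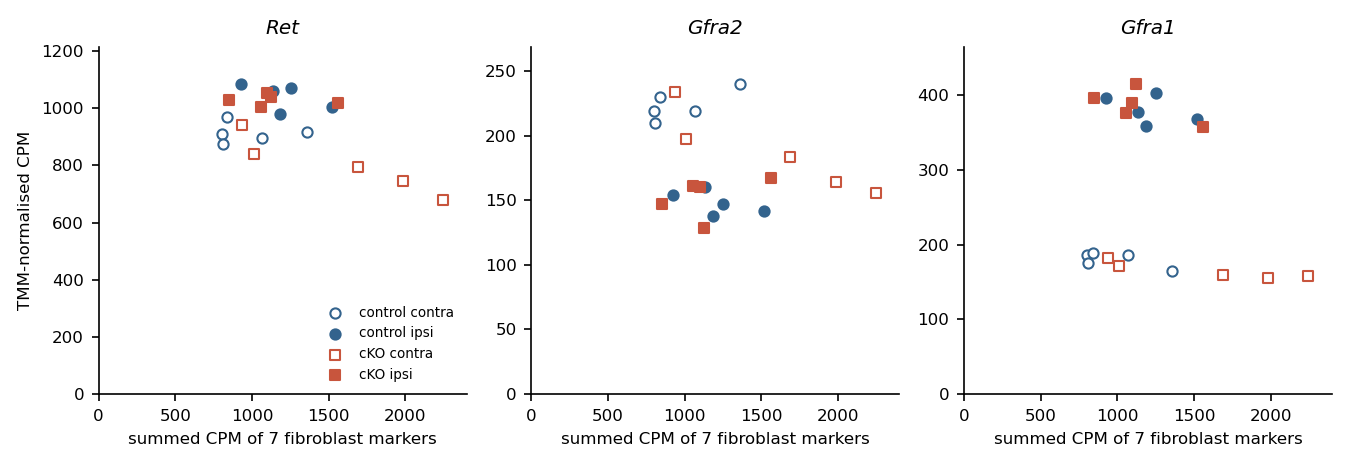
TMM-normalised CPM of Ret, Gfra2 and Gfra1 (vertical axes, from 0) against the summed CPM of 7 fibroblast markers, 1 point per library, open for contralateral and filled for ipsilateral, circles for control and squares for cKO. The 3 open squares at 1689 to 2245 CPM of markers hold the lowest Ret values, 678 to 793 CPM, whereas all Gfra1 points lie in a high ipsilateral or a low contralateral group.

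On the ipsilateral side, where 0.007% of all genes were called, the differences between genotypes were small: 5 of the 8 were below 0 and 3 above, each with an adjusted p of 1 and with overlapping ranges, where 0.599% of all genes had ranges apart. Ret averaged 1039 ± 45.3 CPM in control against 1029 ± 19.2 CPM with cKO, and Gfra1 381 ± 18.6 and 387 ± 21.4 CPM (SD, n = 5). The intervals were -9.12% to 7.92% for Ret, -5.52% to 9.05% for Gfra1, -9.40% to 17.5% for Gfra2 and -14.6% to 20.9% for Ntrk3, the widest of the 8.

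The injury responses of the 2 genotypes were compared in the interaction term, in which 0% of all genes were called by edgeR, 11 by DESeq2, and 2799 genes had an unadjusted p under 0.05. None of the 8 receptors was called. The response in cKO minus that in control was 0.30 for Gfra2 (95% interval 0.036 to 0.57, adjusted p 0.498), 0.18 for Ret (adjusted p 0.506) and 0.15 for Gfra1 (adjusted p 0.510), and above 0 for all 8; 52.9% of all genes were above 0. This term uses the same contralateral cKO libraries as the genotype comparison. H64, H95 and H100 were the lowest of these libraries in Ret, Gfra2 and Gfra1. Without them on that side the term was 0.094 for Gfra2, 0.022 for Ret and 0.047 for Gfra1. It was then below 0 for Ntrk2 (-0.055), Ntrk3 (-0.17) and Sort1 (-0.026). With the fibroblast covariate it was below 0 for Ntrk3 (-0.061) and Ngfr (-0.0018). The non-peptidergic and C-fibre low-threshold mechanoreceptor markers were all above 0 in this term (medians 0.29 and 0.29). Those of fibroblasts, macrophages, endothelium, erythroid cells and muscle (median -3.78) were all below 0. So were 9 of 10 Schwann cell and 7 of 8 satellite glia markers, and none of these markers was called.

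Of the ligands of these receptors, Bdnf, which binds TrkB, had the highest level among those named. Of 7 ligand genes tested, 3 were called higher and 1 lower in control mice, and 2 higher and 2 lower in cKO mice, beside 29.9% and 31.3% of all tested genes called; the median log2 fold changes were 0.33 and 0.10. Bdnf rose in control mice from 51.4 ± 3.96 to 111 ± 4.43 CPM (log2 fold change 1.11, adjusted p 4.14e-10) and in the cKO from 43.9 ± 4.92 to 108 ± 9.98 CPM (1.30, adjusted p 3.06e-11). Ntf3, the TrkC ligand, fell in control mice from 1.03 ± 0.317 to 0.319 ± 0.106 CPM (-1.69) and in the cKO from 0.999 ± 0.221 to 0.388 ± 0.0659 CPM (-1.36).

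Of the GDNF family ligands, Gdnf was 0.275 ± 0.103 and 0.349 ± 0.0656 CPM in control and 0.347 ± 0.153 and 0.324 ± 0.0757 CPM in cKO mice and was not called. Nrtn, the ligand of GFRα2, was called lower in cKO mice, from 1.55 ± 0.210 to 1.19 ± 0.0876 CPM (-0.37), but not without the 3 contralateral libraries high in fibroblast markers (-0.18), with the fibroblast covariate (-0.26), with no filter (-0.36), or without H61 (-0.38), H95 (-0.30) or H100 (-0.34). Artn, the ligand of GFRα3 (1.17 in control mice), and Gdf15, whose receptor is GFRAL with RET (1.49 and 1.56), were called at mean levels under 1 CPM and are named after their values were seen. Gfral itself and Ntf5 did not pass the filter on low counts.

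**Figure D5:**
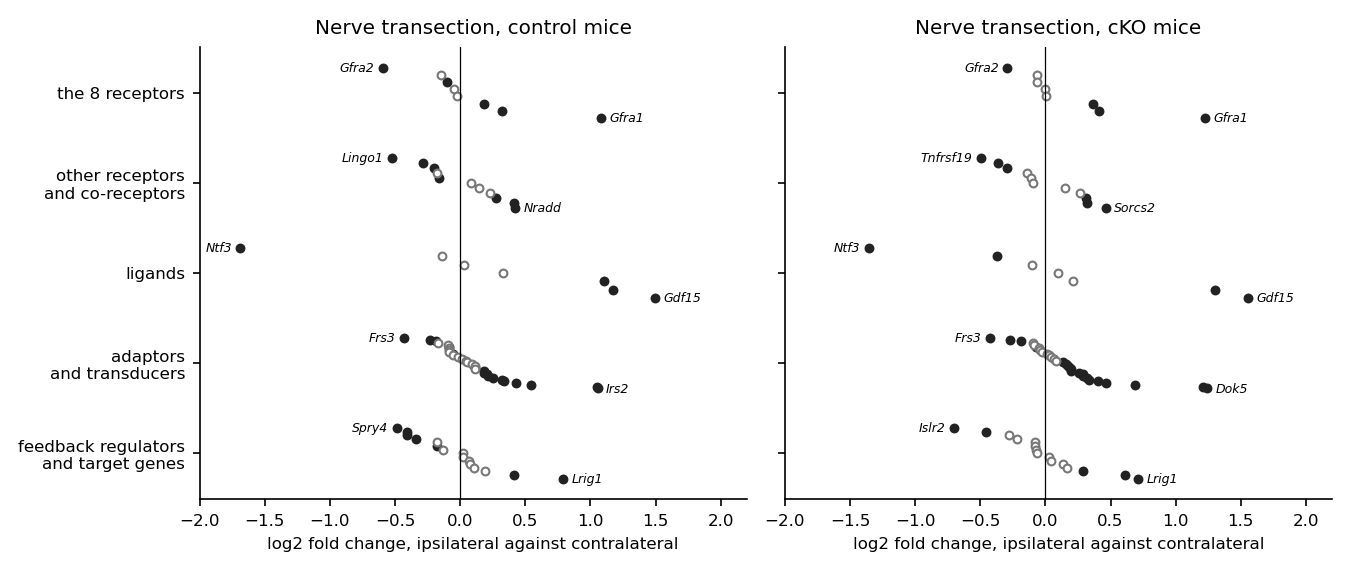
Log2 fold change, ipsilateral against contralateral, of each tested gene of the 8 receptors and 4 related lists, in control (left) and cKO mice (right); filled points are called at an adjusted p under 0.05, open points are not, and the lowest and highest gene of each list is named. Gfra1 at 1.08 and 1.23 lies among the highest points of both panels, beside Irs2, Dok5 and the ligands Bdnf and Gdf15, and Ntf3 is the lowest.

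Of 11 other receptors and co-receptors tested, 3 were called higher and 4 lower in control mice, and 3 higher and 3 lower in cKO mice, beside 29.9% and 31.3% of all tested genes called. Gfra4, the persephin co-receptor and the remaining GFRα gene, fell in control mice from 17.6 ± 0.885 to 15.3 ± 0.542 CPM (-0.20, lost without H96 at -0.16) and in the cKO from 18.3 ± 1.24 to 14.9 ± 1.00 CPM (-0.29). Lingo1, a partner of p75 and of the Nogo receptor, fell in control mice from 98.3 ± 1.83 to 68.5 ± 1.74 CPM (-0.52) and in the cKO from 92.1 ± 11.6 to 71.6 ± 5.10 CPM (-0.36). Sorcs2, a sortilin family receptor that binds proneurotrophins, rose in both (0.41 and 0.46), as did Sdc3, a heparan sulphate proteoglycan that binds GDNF (0.28 and 0.32). Called in 1 genotype were Nradd, a p75 homologue (0.42 in control, lost without H97 at 0.32), Sorl1, a sortilin family sorting receptor (-0.29 in control, lost without H97 at -0.22, H65 at -0.24 or H63 at -0.27, with no filter at -0.28 and with the fibroblast covariate at -0.23), Ncam1, an alternative GDNF receptor (0.31 in cKO), and Tnfrsf19, a relative of p75 (-0.50 in cKO). Rtn4r, the Nogo receptor, was also called lower in control mice (-0.16, adjusted p 0.0491) and is named after its values were seen. The interaction called no gene of any list.

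Of 30 adaptors and transducers of Trk, RET or p75, 12 were called higher and 5 lower in control mice, and 16 higher and 4 lower in cKO mice. Of all tested genes 13.8% were called higher and 16% lower in control, and 16.2% and 15.1% in cKO mice. The median log2 fold changes of the list were 0.074 and 0.15. As the list also holds p75 adaptors such as Bex3, its counts are not counts of genes that couple Trk or RET to Ras, PI3K or PLCγ. Irs2, an insulin receptor substrate that links receptor kinases to PI3K, rose in control mice from 71.2 ± 3.74 to 148 ± 6.45 CPM (1.06) and in the cKO from 64.5 ± 6.54 to 149.5 ± 12.6 CPM (1.21). Dok5, an adaptor that binds RET, rose from 9.25 ± 0.984 to 19.1 ± 1.13 CPM (1.05) and from 8.15 ± 0.802 to 19.3 ± 2.09 CPM (1.24), and Sh2b2, an SH2 adaptor of receptor kinases, by 0.54 and 0.68. Frs3, a docking protein of Trk and FGF receptors, fell in control mice from 19.2 ± 0.459 to 14.2 ± 1.03 CPM and in the cKO from 19.5 ± 1.02 to 14.5 ± 0.981 CPM (-0.43 in both), and Dok4, a RET adaptor, by 0.23 and 0.19. Sos1, a Ras exchange factor, was called lower in control mice (-0.19, lost without H97 at -0.14), and Shc3, a neuronal Shc adaptor, in cKO mice (-0.27, lost without H99 at -0.23). The other genes called lower, named after their values were seen, moved little: Ptpn11, the phosphatase SHP2 (-0.058 in control, -0.073 in cKO mice), and Bex3, a p75 adaptor (-0.087 in control mice).

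Of 15 feedback regulators and target genes, 2 were called higher and 5 lower in control mice, and 3 higher and 2 lower in cKO mice, beside 29.9% and 31.3% of all tested genes called. Lrig1, a transmembrane protein that restrains RET and Trk signalling, rose in control mice from 19.1 ± 1.51 to 33.0 ± 2.36 CPM (0.79) and in the cKO from 19.3 ± 1.43 to 31.6 ± 2.39 CPM (0.71). Etv5, an ETS factor induced by GDNF and neurotrophin signalling, rose (0.41 and 0.61), whereas Etv1, an ETS factor of proprioceptors, fell (-0.41 and -0.46). Islr2, a protein that interacts with Trk and RET, fell by 0.41 in control (lost without H63 at -0.36 or H96 at -0.35) and by 0.70 in cKO mice, where it was -0.35 and called without the 3 contralateral libraries high in fibroblast markers. Of the Sprouty genes, inhibitors of receptor kinase signalling, Spry4 was called lower in control mice (-0.49) and Spry2 higher in cKO mice (0.29). Dusp5, a MAP kinase phosphatase (-0.34), and Spred2, a Sprouty-related inhibitor (-0.18), were called lower in control mice and are named after their values were seen. In the 2 genotype comparisons and the interaction 0 genes of these lists were called.

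For each receptor the genes with the most similar profile were sought among 13111 genes with a symbol and a mean of at least 5 CPM, as the Pearson correlation of log2 CPM over the 20 libraries, which share the injury difference and library composition; the r values are descriptions. For Gfra1 they were Gm16277 (r 0.998), Sez6l (0.997) and Itga7 (0.997). Sez6l rose from 14.6 ± 1.96 to 67.7 ± 4.09 CPM and Itga7, the laminin receptor integrin α7, from 140.4 ± 11.6 to 428 ± 22.1 CPM in control mice. Gm16277 is annotated antisense to Gfra1 and shares 416 bases (7.597%) of its exons; at 26.5 ± 1.76 and 53.2 ± 2.88 CPM in control mice it rose by 1.00, and without the strand setting reads from the shared part cannot be told apart.

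For Gfra2 the most similar genes were Cpne3 (0.989), Cdh10 (0.983) and Nipal3 (0.981), all called lower in both genotypes. For Ret they were Rgmb (0.982), which encodes a BMP co-receptor, Sel1l3 (0.972) and Slc20a1 (0.970), a phosphate transporter, all called higher in both. For Gfra3 they were Gm49322 (0.947), Scamp4 (0.940) and Gap43 (0.902), the growth cone protein, which rose from 190.4 ± 7.33 to 237 ± 8.05 CPM in control mice. Gm49322 and Scamp4 had nearly the same levels, 19.3 and 18.6 CPM contralaterally and 20.3 and 19.6 CPM ipsilaterally in control mice. Whether they share reads was not tested. For the receptors with small changes they were Ryr2 (0.922), Myh10 (0.910) and Dync2h1 (0.898) for Ntrk3, Olfm1 (0.902) and Hacd3 (0.896) for Ngfr, and Synrg (0.839), Apc2 (0.828) and Tbck (0.825) for Ntrk2. For Sort1 they were Gm12522 (0.934), a gene 17766 bases away on the opposite strand, and Phlpp1 (0.836).

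Among the 8 receptors themselves, Ret and Gfra1 had an r of 0.839, Gfra1 and Gfra3 0.795 and Ret and Gfra3 0.705 over the 20 libraries, while Gfra1 and Gfra2 had -0.750. Ngfr and Gfra2 had 0.764, and Ntrk2 and Sort1 0.665.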

How the data were processed

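Messenger RNA of lumbar dorsal root ganglia was sequenced from stranded libraries as paired reads, per the labels' protocols. The deposited values used are whole-number read counts over the exons of each gene, with a column for every library, which the authors did not normalize. The submitters' processing notes name HISAT2, Picard, mm10 and mm39 without roles, and the counting program and its strand setting are not given in the sources used here; the FPKM table was not used. Identifiers were matched to GENCODE M21 (GRCm38), and 51487 of 78258 had a symbol.

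Counts were fitted in R 4.3.3 with edgeR 4.0.16 (TMM, filterByExpr with minimum count 10 and minimum total 15, quasi-likelihood F-test with robust dispersion), using the 20 libraries together and 4 group means. P-values were adjusted by Benjamini-Hochberg over 28564 genes in each of 5 comparisons, with 0.05 as the threshold of a call. Values are TMM-normalised CPM. All 4 groups of 5 libraries share 1 estimate of spread per gene. The p-value and interval of a comparison therefore also reflect the spread in groups that are not compared. The SE of Ret, for example, was 0.0595 for injury in both genotypes. The reported fit treats the 2 libraries of a mouse as independent. The 8 members and the lists (other receptors, ligands, adaptors, feedback genes, cell type markers) were chosen with earlier results of these data known. Named from each pathway list were the 3 highest and 3 lowest calls per injury comparison (1 CPM or more in 1 of the groups compared), with Bdnf, Gdnf, Ahr, Thy1 and Atf3, and for each receptor the 3 genes most like it; some genes that this rule or the lists hold are not reported here, and the list counts leave them out. Any further gene named is marked as such in the text.

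The animal pairs its 2 libraries. Their deviations from the group means had a median correlation across genes of 0.271 (-0.127 to 0.525 over 10 mice, above 0.1 in 8), and the mouse as replicate block was an alternative. Others were DESeq2 1.42.0, limma-voom (limma 3.58.1) with mouse as a random effect, RLE scaling, no filter, a mean of at least 1 CPM, only the libraries compared, and leaving out each mouse. Tested on simulated data for injury in control mice (28213 genes), the fit recovered 49 of 98 genes changed by 0.5 and 76 of 99 changed by 1 on the log2 scale, with 6 false calls. Only these genes changed there, and libraries were drawn without pairing by mouse. In the real comparison 29.9% of genes were called, so the shares recovered do not carry over to it. Counts carried no molecular identifiers. Between replicates, chi-square over its degrees of freedom was 5.11 to 55.3 (40 pairs), above counting noise. The fibroblast covariate and the fit without 3 libraries were chosen after seeing the data.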

Additional observations from a re-analysis of the deposited data

Results flagged for a closer look

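Of 48 groups of 5 values tested for a library or mouse that stood apart from the other 4 (the CPM of each receptor in each group, and its log2 ratio between sides in each genotype), 3 passed the critical value of 0.71, where chance gives 2.4. The measure is the gap to the nearest value divided by the whole range. Ngfr in control ipsilateral ganglia was highest in H65, at 729 CPM against 669 to 686 CPM in the other 4 libraries (0.721). The Gfra3 response was highest among the controls in H62, a fold of 1.55 against 1.15 to 1.23 (0.769), and the call in control mice was lost without it. The Ret response was lowest among the controls in H97, a fold of 1.01 against 1.15 to 1.19 (0.755).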

How the results depend on the processing

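Of 40 results of the 8 receptors, 32 kept their side of the threshold and 24 their sign under all alternatives run, and no called value changed sign. The cause of the changes was not tested. Receptors had from 124738 counts over all libraries (Sort1) upward, and depth was not varied. Pairing the libraries of a mouse (replicate block) gave 8559 called genes in control and 9015 in cKO mice and 0 in the interaction, and changed no receptor's call; it moved Sort1 in cKO mice to 0.0017.

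Ngfr in control mice was not called with RLE scaling (-0.089), no filter (-0.088), only the libraries compared (-0.082) or the fibroblast covariate (-0.084). Gfra2 in cKO mice was not called with no filter (-0.28) or only the libraries compared (-0.27). Genes called between genotypes contralaterally, 21 in the fit reported, were 859 with DESeq2 (67.4% of them higher, against 33.3%), 50 with no filter, 45 at a mean of at least 1 CPM, 2 with only the libraries compared, 3 with the fibroblast covariate and 2 without the contralateral cKO libraries of H64, H95 and H100; DESeq2 called 11 genes in the interaction.

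Uncalled values near 0 changed sign as follows. Sort1 in cKO mice was 0.0043 with DESeq2, 0.0043 with RLE scaling, 0.0022 with limma-voom, 0.0015 at 1 CPM, 0.017 with no filter, 0.018 with only the libraries compared and 0.0046 with the fibroblast covariate. That covariate also gave Ntrk2 in cKO mice -0.016, Ntrk3 -0.061 and Ngfr -0.0018 in the interaction, and Ntrk3 0.063 between genotypes contralaterally. Without the 3 libraries, genotype contralateral values were Ntrk2 0.012, Ntrk3 0.19 and Sort1 0.0029, interaction values Ntrk2 -0.055, Ntrk3 -0.17 and Sort1 -0.026, and injury values in cKO mice Ntrk2 -0.092 and Gdnf 0.0052.

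Leaving out each mouse gave these ranges. For injury in control mice they were Ngfr -0.10 to -0.066 (lost without any of H61, H62, H63, H65, H95, H96, H97 and H100), Ret 0.18 to 0.24, Gfra3 0.24 to 0.36 and Sort1 -0.070 to 0.021. For injury in cKO mice they were Ntrk2 -0.036 to 0.050, Ntrk3 -0.13 to 0.0017, Gfra2 -0.35 to -0.22, Sort1 -0.029 to 0.045 and Gdnf -0.36 to 0.083. Between genotypes contralaterally they were Ntrk2 -0.14 to -0.059, Ntrk3 -0.14 to 0.047, Ret -0.26 to -0.14, Gfra1 -0.16 to -0.086 and Gfra2 -0.35 to -0.20, with 4 to 3326 genes called, the highest count without H99. Ipsilaterally they were Ntrk3 -0.014 to 0.054, Ret -0.032 to 0.0080, Gfra1 -0.0048 to 0.048, Gfra3 -0.038 to 0.018, Sort1 -0.053 to 0.018, Bdnf -0.071 to 0.011 and Atf3 -0.072 to 0.0075. In the interaction they were Ntrk3 -0.0034 to 0.15 and Sort1 -0.017 to 0.074, with 0 to 43 genes called, 43 without H99.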
